A study of Mus musculus with 16 samples.

Results

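AP-1 is a family of dimeric transcription factors built from the Fos and Jun proteins. The genes described here are Fos, Fosb, Fosl1 and Fosl2 of the Fos family, Jun, Junb and Jund of the Jun family, the related factor Atf3, and the immediate early genes Egr1 and Ier2. They were taken as a named set, matched by symbol, and make up 10 of the 32989 gene identifiers counted in the series. All 10 had at least 1 UMI (a unique molecular identifier, counted once per captured mRNA molecule) in each library, and all 10 were among the 19049 genes with a mean of at least 5 UMIs that were tested.

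The libraries came from hair follicle stem cell (HFSC) organoids, 3D cultures (3D-3C) grown for 2 weeks from the epidermal cells of C57BL/6J mice. For each of 4 mice, read from the replicate numbers, cultures stayed untreated or received the acetylated polyamine N1-acetylspermidine, abbreviated N1-AcSpd, over 72 h. Sorting on α6 integrin and CD34 split the cultures into progenitors (α6+/CD34-) and HFSCs (α6+/CD34+), which gave 4 groups of 4 libraries, 1 per mouse, 16 in all. The labels call the untreated libraries WT (wild type) and the others N1AcSpd, and WT was read as untreated. The C57BL/6J mice carried no transgene that the labels name. Every culture, treated or not, grew in the same medium with serum, EGF, FGF2, VEGF and the ROCK inhibitor Y27632. The sorted fractions of 1 mouse and treatment came from the same organoid cultures, and the cells had been grown outside the animal throughout. The question put to these genes was whether stem cells and progenitors differed in them and whether N1-AcSpd changed them. The 16 libraries held 15480075 to 29074855 UMIs. Cd34 mRNA was at 2.88 to 3.65 CPM (UMI counts scaled to a common library size) in the CD34- libraries and at 43.4 to 64.1 CPM in the CD34+ libraries, and the basal keratinocyte genes Krt5 and Krt14 were at 910.1 CPM or more and at 4601 CPM or more in all 16. The sum of 6 fibroblast markers reached at most 1.52 CPM and that of the immune markers at most 2.03 CPM, with Lyz2 at 0 in 15 libraries and Cd3e in 13. Of the endothelial markers, Kdr was at 0 in 11 libraries, while counts assigned to Pecam1 stood at 1687 to 2055 CPM in every library. Melanocyte markers summed to 9.39 to 12.6 CPM, most of it counts assigned to Pmel, with Tyr at 0 in 12 libraries and Tyrp1 in 13.

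Immediate early genes are transcribed within minutes of a growth factor, stress or wounding signal without the need for new protein, mostly through MAP kinases acting on factors such as SRF and its ELK partners that are already bound at their promoters. Fos proteins cannot pair with one another and bind DNA only together with a Jun protein, whereas Jun proteins also pair among themselves. The members differ in what they do: FOS, FOSB and JUN carry strong activation domains, FOSL1 (FRA-1) and FOSL2 (FRA-2) lack a strong one, JUNB and JUND activate more weakly than JUN at many sites, and ATF3 represses many of its targets. In epidermis, AP-1 sites lie in the promoters of cornified envelope genes such as involucrin, and Jun proteins are known for their part in keratinocyte proliferation and differentiation. EGR1 is a zinc finger factor outside the AP-1 family, and IER2 is a small nuclear protein induced with the same timing.

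RefSeq promoter windows (250 bases before to 50 bases after a transcription start, GRCm38.p6) matched 7 of the 10 genes. Fosl1, Egr1 and Ier2 had no entry, and of the 7 windows only those of Fos and Jun lie at the GENCODE gene start. The sequences of Jun, Fos and Atf3 ahead of the start are shown as examples of promoters that AP-1, SRF or ATF/CREB factors are known to act on. The Jun sequence lies at chr4:95052223-95052472 on the minus strand, that of Fos at chr12:85473790-85473889 on the plus strand and that of Atf3 at chr1:191183334-191183433 on the minus strand, the last at a start inside the annotated gene. Each runs 5′ to 3′ and ends at the base before the start, with matched motifs in capitals.
Jun: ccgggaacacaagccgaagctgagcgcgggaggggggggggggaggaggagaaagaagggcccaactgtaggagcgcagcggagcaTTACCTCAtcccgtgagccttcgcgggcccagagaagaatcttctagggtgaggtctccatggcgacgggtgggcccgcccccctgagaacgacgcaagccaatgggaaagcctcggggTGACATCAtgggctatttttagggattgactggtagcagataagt
Fos: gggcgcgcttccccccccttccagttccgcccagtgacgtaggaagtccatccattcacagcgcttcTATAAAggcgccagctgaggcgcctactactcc
Atf3: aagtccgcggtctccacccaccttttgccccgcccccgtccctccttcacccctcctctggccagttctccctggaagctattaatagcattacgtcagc
On both strands, the windows were searched for TGANTCA (the classical AP-1 site), TGACGTCA (the cAMP response element), TGACATCA and TTACCTCA (the AP-1 variants of the Jun promoter), TATAAA and the CArG box bound by SRF. Jun held TGACATCA at positions -45 to -38 and TTACCTCA at positions -164 to -157, counted from the start with -1 as the base just before it. Those motifs occurred in 3.62% and 0.889% of all 32851 windows. Fos held TATAAA at positions -33 to -28 and Junb held it at positions 1 to 6 of the RefSeq start, which lies upstream of its GENCODE start, a motif present in 13.6% of windows. No matches overlapped. TGANTCA, TGACGTCA and the CArG box, found in 7.81%, 1.79% and 1.63% of all windows, were not matched in the 7 windows. Only exact matches were counted, and the windows reach 250 bases before the RefSeq start. Sites farther out, and sites that differ from these letters, were therefore not covered, so a missing match does not show that a promoter lacks such a site.

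Immediate early mRNAs are known for rapid decay through AU-rich elements in their 3′ untranslated regions. The pentamer ATTTA, the DNA form of that element, occurred at least once in the longest annotated 3′ untranslated region (GENCODE M21) of 9 of the 10 genes, beside 65.5% of 20846 coding genes. Fosl2 held 8 copies in 4653 bases, Fos 4 in 815 bases, Jun 4 in 1233 bases and Ier2 none in 755 bases. The longer form TTATTTATT was found in 2 of the 10, Fos and Fosl2, beside 7.64% of coding genes. In copies per base, Fos, Junb and Jun stood at percentiles 92.1, 88.2 and 81 of the coding genes. Atf3 stood at 72.2 and the other members at 62 or lower, with Ier2 at 0. The richest stretches of 25 bases in Fos, Jun and Junb, the densest members, are shown with the pentamer in capitals. They are examples of overlapping, spaced and single copies.
Fos: tgttttcaATTTATTTAttaagatg
Jun: cATTTAtaatcataggaaagATTTA
Junb: atatttgtgtATTTAacagggaggg

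In untreated cultures, 2 of the 10 genes differed between the sorted populations: Fosl1 was lower and Egr1 higher in CD34+ HFSCs. Over all tested genes, 32.1% were called in that comparison (edgeR quasi-likelihood test, Benjamini-Hochberg adjusted p under 0.05), 16.1% higher and 16.1% lower in CD34+ cells, so the share among the 10 was not above the background. After N1-AcSpd, 4 of 10 differed, with Fosl1, Junb and Atf3 lower and Egr1 higher, beside 33.3% of all genes, 16.5% higher and 16.8% lower. N1-AcSpd against untreated gave no call among the 10 in either population, where 0.614% of genes were called in CD34- progenitors and 0.325% in CD34+ HFSCs. At an unadjusted p under 0.05 there were 2 of 10 in each population, Junb and Ier2 in CD34- progenitors and Atf3 and Ier2 in CD34+ HFSCs, beside 13.6% and 13.2% of all genes at that threshold. DESeq2 called 1, Junb, in CD34- progenitors and 0 in CD34+ HFSCs. The test of whether the cell type difference itself changed with treatment called 0% of genes with edgeR, and none of the 10 reached an unadjusted p under 0.05 there. DESeq2 called 71 genes in that test, none of the 10. The median log2 difference of the 10 was -0.06 in untreated and -0.08 in treated cultures for CD34+ against CD34-, beside 0.02 and -0.0068 over all tested genes. Each treatment comparison shares its libraries with a cell type comparison, so the 4 sets of differences are not independent of one another.

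**Figure D1:**
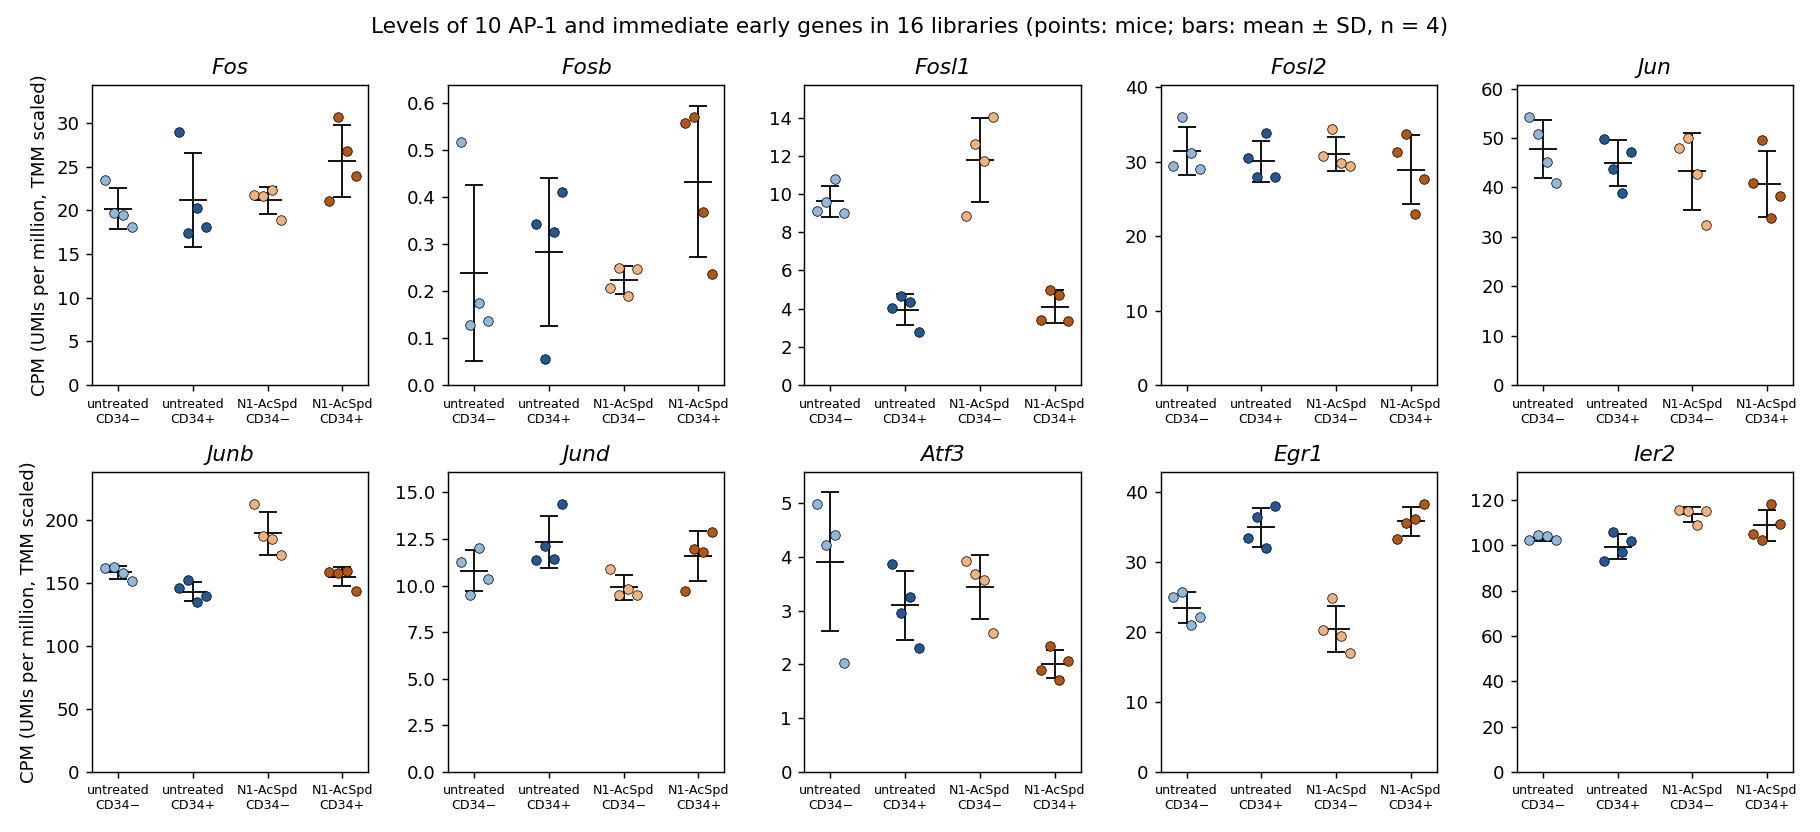
CPM of each of the 10 genes (y axes, each from 0, separate scales) in the 4 groups (x axes); each point is the library of 1 mouse, in mouse order from left to right, and the bars are the mean ± SD of 4. Fosl1 and Egr1 show CD34+ points apart from CD34- points under both conditions, while Fos, Fosl2 and Jun show overlapping groups.

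**Figure D2:**
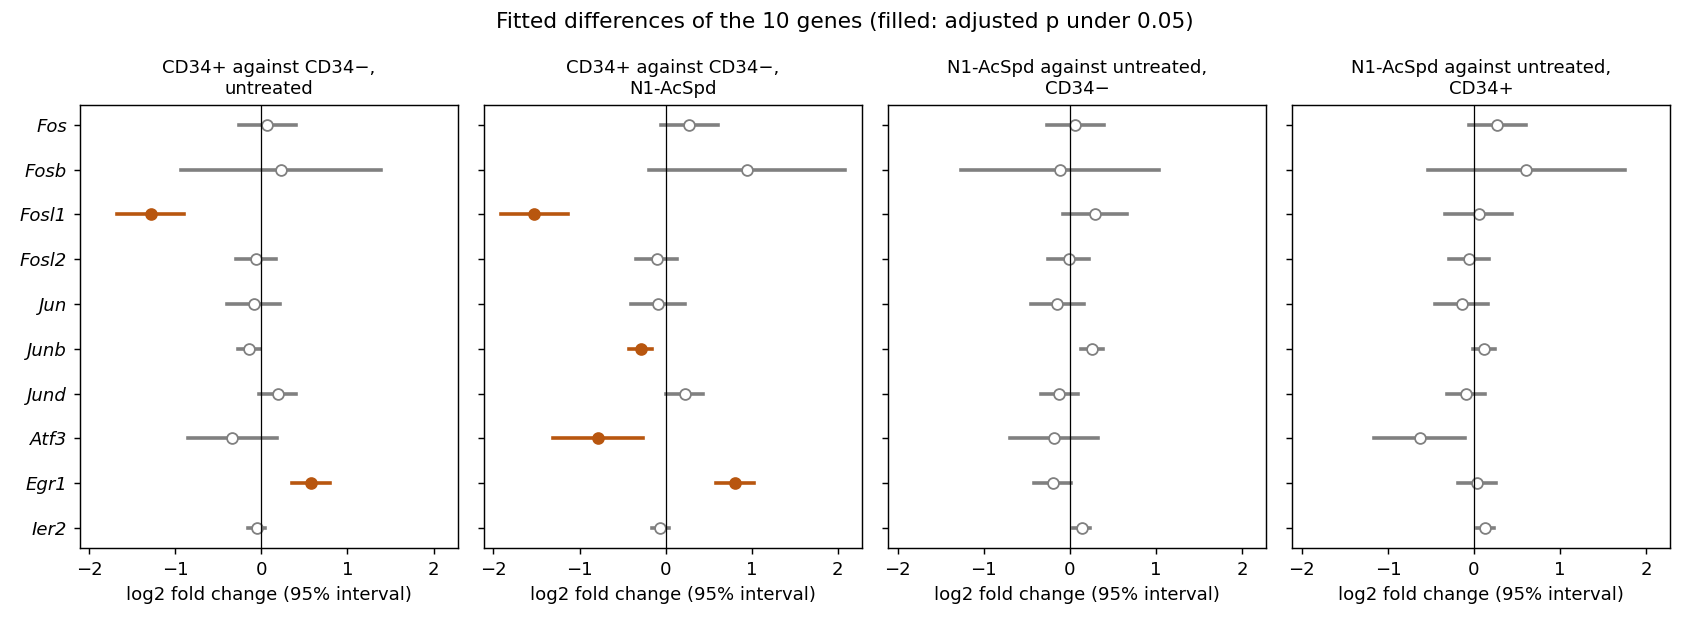
Fitted log2 fold changes of the 10 genes with 95% intervals (x axes) in the 4 comparisons; filled points have an adjusted p under 0.05. Fosl1 (-1.28 and -1.52) and Egr1 (0.58 and 0.81) are filled in both cell type comparisons, Junb (-0.29) and Atf3 (-0.78) in the N1-AcSpd one, and no point is filled in the treatment comparisons.

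Fosl1 encodes FRA-1, a Fos protein common in migrating and growth-stimulated epithelial cells. In untreated CD34- progenitors it was at 9.12, 9.58, 10.8 and 9.02 CPM in mice 1 to 4, and in untreated CD34+ HFSCs at 4.04, 4.66, 4.34 and 2.78 CPM. With N1-AcSpd the values were 8.83, 12.6, 11.7 and 14 CPM in CD34- and 3.42, 4.95, 4.73 and 3.35 CPM in CD34+ cells. Every CD34+ library lay below every CD34- library, and the lowest CD34- value, in the treated culture of mouse 1, was still well above the highest CD34+ value. The group means were 9.63 ± 0.81 and 3.95 ± 0.83 CPM untreated and 11.8 ± 2.2 and 4.11 ± 0.85 CPM treated (SD, n = 4). The log2 difference for CD34+ against CD34- was -1.28 (SE 0.18, adjusted p = 0.000112) in untreated cultures, a level 2.43-fold lower, with the same sign in 4 of 4 mice. After N1-AcSpd it was -1.52 (SE 0.18, adjusted p = 2.06e-05), 2.87-fold lower and again in 4 of 4 mice. In the order of the group means, the untreated and treated groups of a cell type were neighbours that did not differ beyond their spread: N1-AcSpd against untreated gave 0.29 in CD34- progenitors (95% interval -0.08 to 0.67, adjusted p = 0.498) and 0.05 in CD34+ HFSCs (-0.34 to 0.45, adjusted p = 0.968). The cell type calls stood in 28 of 28 alternative settings, with log2 differences of -1.37 to -1.15 untreated and -1.64 to -1.35 treated.

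Differentiated keratinocyte markers were lower in CD34+ than in CD34- cells, as Fosl1 was. The sum of Krt1, Krt10, Ivl, Lor, Sbsn and Krtdap was 1001 to 1348 CPM in untreated and 1213 to 1527 CPM in treated CD34- libraries, against 280.1 to 303 and 293 to 382 CPM in CD34+ libraries, and all 6 were called lower in CD34+ cells under both conditions. Within the 4 groups the sum and Fosl1 did not run together throughout. In each CD34- group the library with the highest sum, mouse 4 untreated and mouse 1 treated, had the lowest Fosl1. In each CD34+ group the library of mouse 4 was lowest in sum and in Fosl1. The part of these markers in the Fosl1 difference was not tested. In sorted bulk cells, fewer cells that express a gene and less mRNA per cell cannot be told apart. The Fosl1 gene (chromosome 19, 5447547 to 5455946, plus strand, 4 exons, GRCm38) overlaps Ccdc85b on the opposite strand over 2767 bases, and whether counting used strand was not given in the sources used here. Ccdc85b had 10 to 39 UMIs per library, 12.1% of the mean Fosl1 count, with a log2 difference of -0.15 untreated (adjusted p = 0.806) and 0.29 treated (adjusted p = 0.588).

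**Figure D3:**
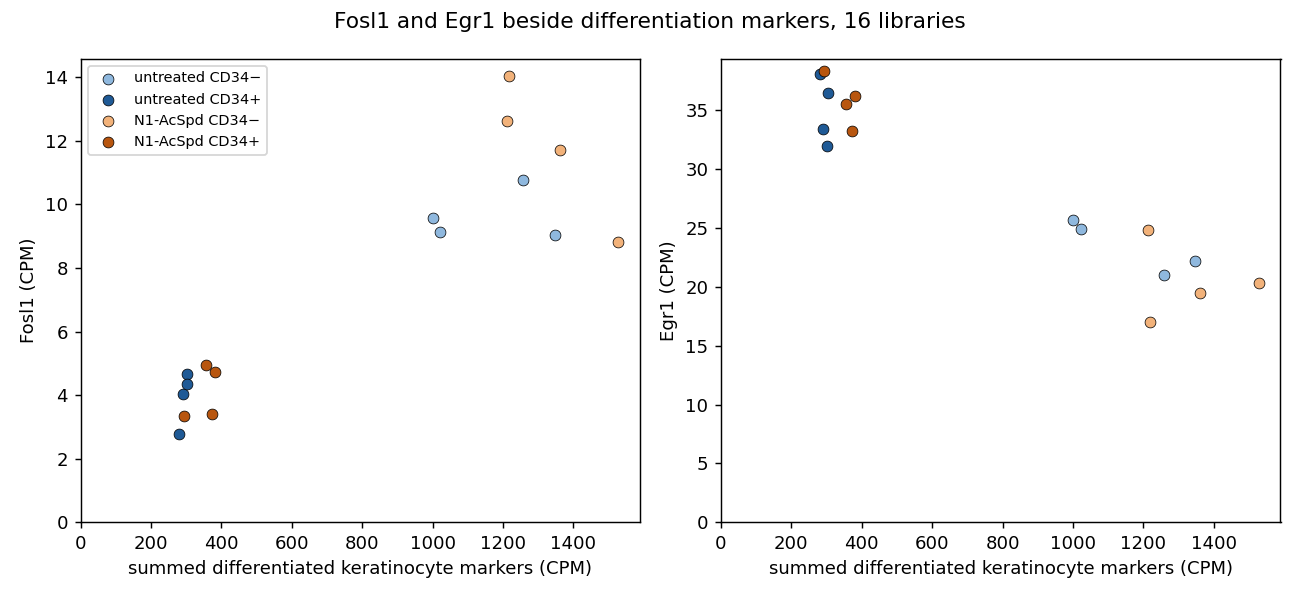
Fosl1 (left) and Egr1 (right) in CPM (y axes, from 0) against the summed CPM of 6 differentiated keratinocyte markers (x axes, from 0), 1 point per library, coloured by group. The CD34+ libraries, at 280.1 to 382 CPM of markers, hold the low Fosl1 and high Egr1 values, and the CD34- libraries, at 1001 to 1527 CPM, the reverse; the 2 cell types form separate clusters.

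Fos, the founding member of the family and the partner of Jun in the classical AP-1 dimer, was not called in any comparison. It was at 23.5, 19.7, 19.5 and 18.1 CPM in untreated CD34- and 29, 17.4, 20.3 and 18.1 CPM in untreated CD34+ libraries, and at 21.7, 21.7, 22.3 and 18.9 CPM and 21, 30.7, 26.8 and 23.9 CPM in the treated ones. The groups overlapped, with mouse 1 highest among the untreated libraries of both cell types. CD34+ against CD34- gave 0.07 untreated (95% interval -0.26 to 0.40) and 0.28 treated (-0.06 to 0.61, adjusted p = 0.199). Without mouse 1 the treated value was 0.37 and passed the threshold (adjusted p = 0.0213). N1-AcSpd against untreated gave 0.07 (-0.27 to 0.40) in CD34- and 0.27 (-0.06 to 0.60) in CD34+ cells, higher in 3 of 4 mice in each.

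Fosl2, which encodes FRA-2, a Fos protein with slower and longer induction, was not called either. It lay between 23.0 and 36.0 CPM over the 16 libraries, with group means of 31.4 ± 3.2, 30.0 ± 2.8, 31.1 ± 2.3 and 28.9 ± 4.6 CPM (SD, n = 4) in untreated CD34-, untreated CD34+, treated CD34- and treated CD34+ cells. The 95% intervals of its log2 differences were -0.30 to 0.17 untreated and -0.34 to 0.13 treated for CD34+ against CD34-, and -0.25 to 0.22 in CD34- and -0.29 to 0.18 in CD34+ cells for N1-AcSpd against untreated. Fosb, which with its short form is best known from neurons, was near the limit of detection, at 1 to 15 UMIs per library or 0.0549 to 0.569 CPM. CD34+ against CD34- gave 0.23 (-0.94 to 1.39) untreated and 0.95 (-0.19 to 2.08, adjusted p = 0.198) treated. Fosb was not called in any comparison, and these intervals leave its difference poorly determined.

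Jun, the most strongly activating Jun protein, had overlapping groups throughout. Its CPM were 54.2, 50.8, 45.1 and 41 in untreated CD34- and 49.8, 43.8, 38.9 and 47.2 in untreated CD34+ libraries, and 48, 49.9, 42.6 and 32.5 and 41, 49.6, 33.8 and 38.2 in the treated ones. CD34+ against CD34- gave -0.09 in both conditions (95% intervals -0.40 to 0.22 in each). N1-AcSpd against untreated gave -0.14 in both populations, with intervals of -0.45 to 0.17 in each, and was lower in 4 of 4 mice in CD34- and 3 of 4 in CD34+ cells. Jun is a gene of 1 exon (chromosome 4, 95049034 to 95052222, minus strand). The antisense gene Junos overlaps its 5′ end over 689 bases and had 35 to 98 UMIs per library, 6.67% of the mean Jun count. As for Fosl1, whether counting used strand was not given.

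Junb, whose product restrains JUN at many promoters and is known in skin for limiting inflammation and progenitor growth, showed small but tight differences. It was at 162, 163, 158 and 152 CPM in untreated CD34- progenitors and at 146, 153, 135 and 139.6 CPM in untreated CD34+ HFSCs. With N1-AcSpd it was at 213, 188, 185 and 173 CPM in CD34- and 159, 159, 159.6 and 144 CPM in CD34+ cells. All 4 treated CD34- libraries lay above all the others, while the other groups ran into one another. After N1-AcSpd, Junb was lower in CD34+ than in CD34- cells by a log2 difference of -0.29 (SE 0.060, adjusted p = 0.00184), 1.22-fold, in 4 of 4 mice. In untreated cultures the difference was -0.15 (95% interval -0.28 to -0.02, adjusted p = 0.0779), lower in 4 of 4 mice and not called. With the mouse as a block it was -0.15 with an adjusted p of 0.0241, which passes. N1-AcSpd against untreated in CD34- progenitors gave 0.26 (0.13 to 0.39, adjusted p = 0.0769), higher in 4 of 4 mice with no overlap, and with the mouse as a block 0.25 (adjusted p = 0.0237), which also passes. In CD34+ HFSCs it gave 0.11 (-0.02 to 0.24, adjusted p = 0.45). The test of whether the treatment effect differed between the populations gave -0.14 (-0.33 to 0.04, adjusted p = 1).

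The Junb gene (chromosome 8, 84974484 to 84978718, minus strand, 1 exon) ends inside the end of Prdx2, a peroxiredoxin gene on the opposite strand, and they share 351 bases at the 3′ ends from which these libraries were made. Prdx2 counts were of the same size, 105% of the mean Junb count. Prdx2 itself gave -0.06 for CD34+ against CD34- after N1-AcSpd (adjusted p = 0.142) and 0.09 for N1-AcSpd against untreated in CD34- progenitors (adjusted p = 0.188). How reads in the shared bases were divided was not given in the sources used here, so the Junb values carry that uncertainty. Summed heat shock mRNAs were 2216 to 2792 CPM in CD34- and 1689 to 2032 CPM in CD34+ libraries. Most of that sum was Hspb1 and Hspa8, so it is not a measure of handling stress alone. It was 2470 to 2792 CPM in the treated CD34- group, where Junb was also highest. The 7 heat shock genes did not move as one: 3 were called lower and Dnajb1 higher in CD34+ cells under both conditions (0.33, adjusted p = 0.00423, and 0.35, adjusted p = 0.00247), while Hspa1a, Hspa1b and Hsph1 were not called. Hspb1 was called higher with N1-AcSpd in CD34- progenitors (0.31, adjusted p = 0.0237). Their part in the Junb difference was not tested.

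Jund, the Jun protein that is expressed most steadily across tissues and is often linked with quiescence, was at 11.3, 9.52, 12 and 10.4 CPM in untreated CD34- and 11.4, 12.1, 11.4 and 14.4 CPM in untreated CD34+ libraries. In treated cultures it was at 10.9, 9.48, 9.81 and 9.48 CPM in CD34- and 9.7, 12, 11.8 and 12.9 CPM in CD34+ cells. The groups overlapped, and CD34+ cells were higher in 3 of 4 mice in each condition. The difference was 0.19 untreated (95% interval -0.03 to 0.41, adjusted p = 0.176) and 0.22 treated (0.0061 to 0.44, adjusted p = 0.109), not called. Scaled to library totals instead of by TMM (a trimmed mean of gene-wise ratios), both passed, at 0.31 (adjusted p = 0.0352) and 0.34 (adjusted p = 0.0212). That scaling moved the median of all genes to 0.14 and 0.11 and the share of calls that were higher in CD34+ cells to 73.4% and 71.6%, so 0.31 and 0.34 stand 0.17 and 0.23 above the median gene. Under that scaling the calls among the 10 were 2 higher and 1 lower in untreated cultures and 2 higher and 3 lower in treated ones, in place of 1 and 1, and 1 and 3.

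Atf3, a stress-induced factor of the ATF/CREB branch that pairs with Jun proteins, was low, at 28 to 116 UMIs per library. It was at 4.99, 4.22, 4.42 and 2.03 CPM in untreated CD34- and 3.87, 2.96, 3.25 and 2.31 CPM in untreated CD34+ libraries. With N1-AcSpd it was at 3.92, 3.69, 3.57 and 2.58 CPM in CD34- and 1.89, 2.33, 1.72 and 2.06 CPM in CD34+ cells. The treated CD34+ libraries were all below the treated CD34- libraries, while mouse 4 was the lowest of its group in untreated CD34-, untreated CD34+ and treated CD34- cells. The treated difference between cell types was -0.78 (SE 0.24, adjusted p = 0.0228), 1.72-fold lower in CD34+ cells and in 4 of 4 mice. It kept its direction but not its call without any of 4 single libraries: treated CD34- of mouse 1 (-0.71, adjusted p = 0.0578) or mouse 2 (-0.75, adjusted p = 0.0521), or treated CD34+ of mouse 1 (-0.76, adjusted p = 0.0552) or mouse 3 (-0.72, adjusted p = 0.0603). With mouse 1, 2 or 3 left out of all groups it was likewise not called (adjusted p = 0.112, 0.0908 and 0.141). The untreated difference was -0.34 (95% interval -0.85 to 0.18, adjusted p = 0.33) and passed without the untreated CD34- library of mouse 4 (-0.55, adjusted p = 0.0301). N1-AcSpd against untreated gave -0.63 in CD34+ HFSCs (-1.16 to -0.10, adjusted p = 0.295), lower in 4 of 4 mice, and -0.18 in CD34- progenitors (-0.69 to 0.32, adjusted p = 0.847). The change of the cell type difference with treatment was -0.45 (-1.18 to 0.28, adjusted p = 1).

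Egr1 was the 1 gene of the 10 called higher in CD34+ HFSCs. It was at 25, 25.7, 21 and 22.2 CPM in untreated CD34- and 33.5, 36.5, 32 and 38.1 CPM in untreated CD34+ libraries. With N1-AcSpd it was at 20.3, 24.8, 19.5 and 17 CPM in CD34- and 33.2, 35.6, 36.2 and 38.3 CPM in CD34+ cells. Under both conditions each CD34+ library was above each CD34- library. The group means were 23.5 ± 2.2 and 35 ± 2.8 CPM untreated and 20.4 ± 3.3 and 35.8 ± 2.1 CPM treated (SD, n = 4). The log2 difference was 0.58 (SE 0.10, adjusted p = 0.000689) untreated, 1.49-fold, and 0.81 (SE 0.10, adjusted p = 3.65e-05) treated, 1.76-fold, in 4 of 4 mice each. Both calls stood in 28 of 28 alternative settings, at 0.51 to 0.69 and 0.70 to 0.93. N1-AcSpd against untreated gave -0.20 in CD34- progenitors (95% interval -0.42 to 0.02, adjusted p = 0.417), lower in 4 of 4 mice, and 0.03 in CD34+ HFSCs (-0.18 to 0.25, adjusted p = 0.96). The share of mitochondrial counts, a sign of RNA and cell quality, moved the same way as Egr1, at 0.938% to 1.16% in CD34- and 1.23% to 1.45% in CD34+ libraries, and its part in the difference was not tested. Egr1 has no overlapping gene in GENCODE M21.

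Ier2, a nuclear protein of the first wave of induced genes, differed little in size. It was at 102, 105, 104 and 102 CPM in untreated CD34- and 93, 106, 97.2 and 102 CPM in untreated CD34+ libraries, and at 115, 115, 109 and 115 CPM and 105, 103, 118 and 109.6 CPM in the treated ones. All treated CD34- libraries lay above all untreated CD34- libraries, and the CD34+ groups overlapped. N1-AcSpd against untreated gave 0.14 in CD34- progenitors (95% interval 0.04 to 0.24, adjusted p = 0.21), higher in 4 of 4 mice, and 0.13 in CD34+ HFSCs (0.03 to 0.23, adjusted p = 0.26), higher in 3 of 4. Neither was called. CD34+ against CD34- gave -0.06 in each condition, with intervals of -0.16 to 0.04 in both.

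Among the 4 Fos genes, 1 was called between the sorted populations in each condition, and among the 3 Jun genes, none in untreated and 1 in treated cultures, beside 32.1% and 33.3% of all genes. With group means removed, the closest pairs over the 16 libraries were Jun and Atf3 (Pearson's r = 0.63), Fos and Atf3 (0.61), Jun and Egr1 (0.59) and Jun and Junb (0.57), and the most opposed pair was Fosl2 and Ier2 (-0.58). These are descriptions over libraries that share mice, cultures and scaling.

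**Figure D4:**
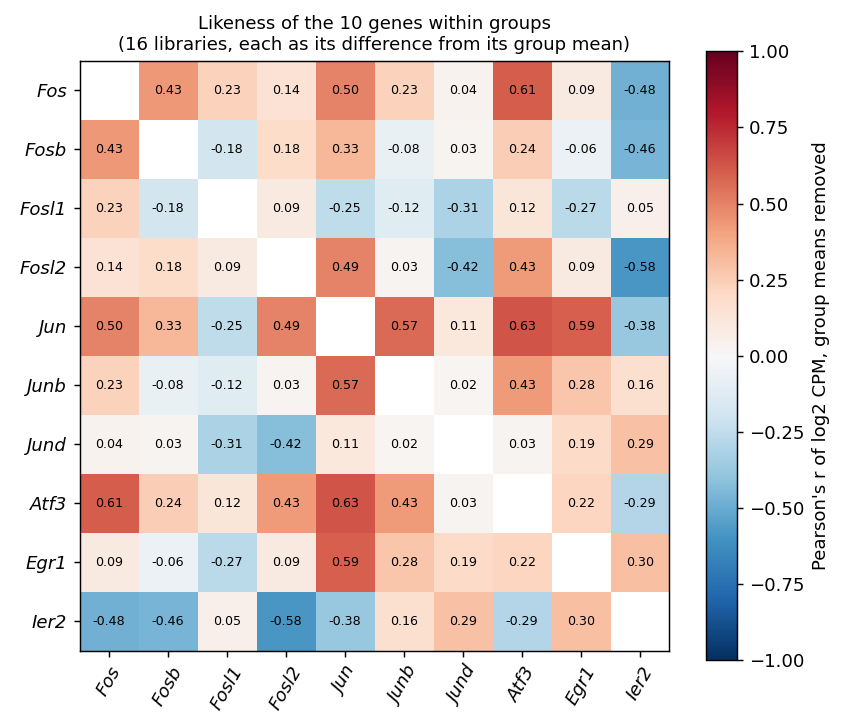
Pearson's r of log2 CPM between each pair of the 10 genes over 16 libraries after subtracting each group's mean (colour and printed value; blank diagonal). The Jun row holds 0.63 for Atf3, 0.59 for Egr1 and 0.57 for Junb, and the lowest value is -0.58, between Ier2 and Fosl2.

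Across the 16 libraries, the genes with the pattern most like each member were sought among 9703 candidates by Pearson's r of log2 CPM. Fosl1 was most like Zfp408, Polr2l and Vgll3 (r = 0.98 each), and Egr1 most like Mgst1, Trp73 and Dnal4 (0.96 each). Both members split by cell type, and with group means removed these values were lower, at 0.75 to 0.83 and 0.62 to 0.65. Junb was most like Ccdc137, Mrpl45 and Ubap1 (0.90 to 0.91), and Ier2 most like Cd9, Pcbp1 and Capza2 (0.89 to 0.90). Jund was most like Acaa1a, Pot1a and Cep290 (0.85 to 0.89). With group means removed the values were 0.53 to 0.65 for Junb, 0.68 to 0.78 for Ier2 and 0.73 to 0.88 for Jund. Jun was most like its own antisense gene Junos (0.89), then Fndc3a and Ubn2 (0.82 to 0.83). Junos overlaps Jun and use of strand in counting was not given, so the Junos value carries that uncertainty. Atf3 was most like Snord55 and Snord38a (0.88 to 0.90), and Fosl2 and Fos had looser matches, Atrx at 0.85 and Zxdc at 0.77.

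The wider family of basic leucine zipper factors, from which AP-1 dimers also draw partners, divided in both directions. Of 20 tested relatives, 3 rose and 4 fell in untreated CD34+ cells and 4 rose and 4 fell in treated ones, 35% and 40% called beside 32.1% and 33.3% of all genes, with median differences of -0.07 and 0.00075. Cebpd, a C/EBP factor of growth arrest and acute responses, was at 46.9 ± 5.6 CPM in untreated CD34- and 113.5 ± 12 CPM in untreated CD34+ cells (SD, n = 4), a log2 difference of 1.28 (SE 0.13, adjusted p = 5.48e-06). After N1-AcSpd its difference was 1.09 (adjusted p = 1.82e-05). The Jun partner Atf2 was slightly higher, at 0.28 (adjusted p = 0.039) and 0.39 (adjusted p = 0.00621), and its homologue Atf7 lower, at -0.36 (adjusted p = 0.00235) and -0.51 (adjusted p = 0.000152). The Atf2 call in untreated cells was lost under several settings, DESeq2 among them (0.26, adjusted p = 0.0855), and without any of 5 single libraries, where the values were 0.22 to 0.29. It was also lost with mouse 1, 2, 3 or 4 left out of all groups (adjusted p = 0.0966, 0.0566, 0.22 and 0.0568). The treated call was lost without mouse 3 (0.35, adjusted p = 0.0691).

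Among other immediate early genes, more were called lower than higher in CD34+ HFSCs. Of 36 tested, 7 rose and 14 fell in untreated CD34+ cells and 6 rose and 15 fell in treated ones, 58.3% in both beside 32.1% and 33.3% of all genes, with medians of -0.06 and -0.17. Sgk1, a serum- and glucocorticoid-induced kinase, was at 79.1 ± 12.9 CPM in untreated CD34- and 276 ± 42 CPM in untreated CD34+ cells (SD, n = 4), 1.80 (SE 0.17, adjusted p = 2.76e-06), and its treated difference was 1.90 (adjusted p = 1.76e-06). Cited2, a transcriptional co-regulator, rose by 0.85 (adjusted p = 0.00443) and 0.70 (adjusted p = 0.0138). Without the treated CD34+ library of mouse 4 the treated Cited2 value was 0.51 and missed the threshold (adjusted p = 0.0512), as it did without mouse 2 (0.78, adjusted p = 0.0502) or mouse 3 (0.72, adjusted p = 0.0672). Hbegf, a growth factor that activates the EGF receptor and is itself induced by it, fell by 1.08 (adjusted p = 0.000435) and 1.30 (adjusted p = 8.64e-05) on the log2 scale. Plk3, a stress-responsive kinase, fell by 1.08 (adjusted p = 9.2e-05) and 1.40 (adjusted p = 7.87e-06).

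The factors upstream of AP-1, which are the MAP kinase cascades, SRF with its partners and the ubiquitin ligases that remove Jun, were called at close to the background share. Of 32 tested, 6 rose and 5 fell in untreated CD34+ cells and 7 rose and 5 fell in treated ones, 34.4% and 37.5% beside 32.1% and 33.3%, with a median of 0.08 in each. Itch, a ubiquitin ligase whose known substrates include JUN and JUNB, was at 140.9 ± 12.4 and 82.2 ± 3.9 CPM in untreated CD34- and CD34+ cells (SD, n = 4), -0.78 (SE 0.068, adjusted p = 1.75e-06), and at -0.71 treated (adjusted p = 3.24e-06). Map3k1, a kinase of the JNK branch, was higher, at 0.53 (adjusted p = 0.00606) and 0.48 (adjusted p = 0.0107). In untreated cells Mapk3 (ERK1) rose by 0.46 (adjusted p = 0.00423) and Map2k4, which activates JNK, fell by 0.37 (adjusted p = 0.000431). In treated cells the SRF coactivator Mrtfa rose by 0.49 (adjusted p = 0.00788) and the ternary complex factor Elk3 fell by 0.44 (adjusted p = 0.00269). The Map3k1 calls missed the threshold without mouse 2 (0.51 untreated, adjusted p = 0.0513, and 0.45 treated, adjusted p = 0.08), the treated one also without mouse 4 (0.47, adjusted p = 0.0508), Mapk3 without mouse 2 (0.38, adjusted p = 0.0565) and Mrtfa without mouse 4 (0.35, adjusted p = 0.0654).

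Genes known as AP-1 targets in keratinocytes had the lowest median in CD34+ HFSCs of the 5 gene lists plotted together, although the differentiated keratinocyte markers had lower medians (-1.58 untreated and -1.69 treated). Of 31 tested, 3 rose and 20 fell in untreated and 4 rose and 20 fell in treated cultures, 74.2% and 77.4% called beside 32.1% and 33.3% of all genes, with medians of -1.08 and -1.20 beside 0.02 and -0.0068 over all genes. Sprr2d, a small proline-rich protein of the cornified envelope, was at 57.2 ± 18 and 7.85 ± 1.60 CPM in untreated CD34- and CD34+ cells (SD, n = 4), -2.86 (SE 0.32, adjusted p = 1.55e-05), and -2.68 treated (adjusted p = 2.14e-05). It belongs to a family of near-identical copies, so its counts are uncertain. S100a9, an alarmin of stressed epidermis, fell by 2.76 in untreated cells (adjusted p = 1.73e-05) and Sprr1a, another envelope precursor, fell by 2.68 in treated cells (adjusted p = 5.29e-07). Lcn2, an iron-binding defence protein, rose by 1.73 (adjusted p = 0.00112) and 1.37 (adjusted p = 0.00481), and the metallothionein Mt1 by 0.56 (adjusted p = 0.00108) and 0.60 (adjusted p = 0.00053). Ivl and Lor of this list are also among the differentiated keratinocyte markers given above, which fell together. Beside them and the Sprr genes named here, the list holds other genes of keratinocyte differentiation. Of these, Tgm1 (-2.63 untreated), Sprr1b (-2.38) and Flg (-0.68) were called lower in CD34+ cells under both conditions, and Sprr2a1 was not called. The list is thus not separate from differentiation. What the shift of these targets owes to AP-1 was not tested. N1-AcSpd against untreated called none of the genes of these 4 lists in either population with edgeR. At an unadjusted p under 0.05 there were 5 of 20 bZIP relatives, 7 of 36 other immediate early genes, 8 of 32 upstream factors and 4 of 31 targets in CD34- progenitors, and 6, 5, 5 and 5 in CD34+ HFSCs, beside 13.6% and 13.2% of all genes. DESeq2 called 0, 2, 1 and 1 in CD34- and 1 of each list in CD34+ cells.

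**Figure D5:**
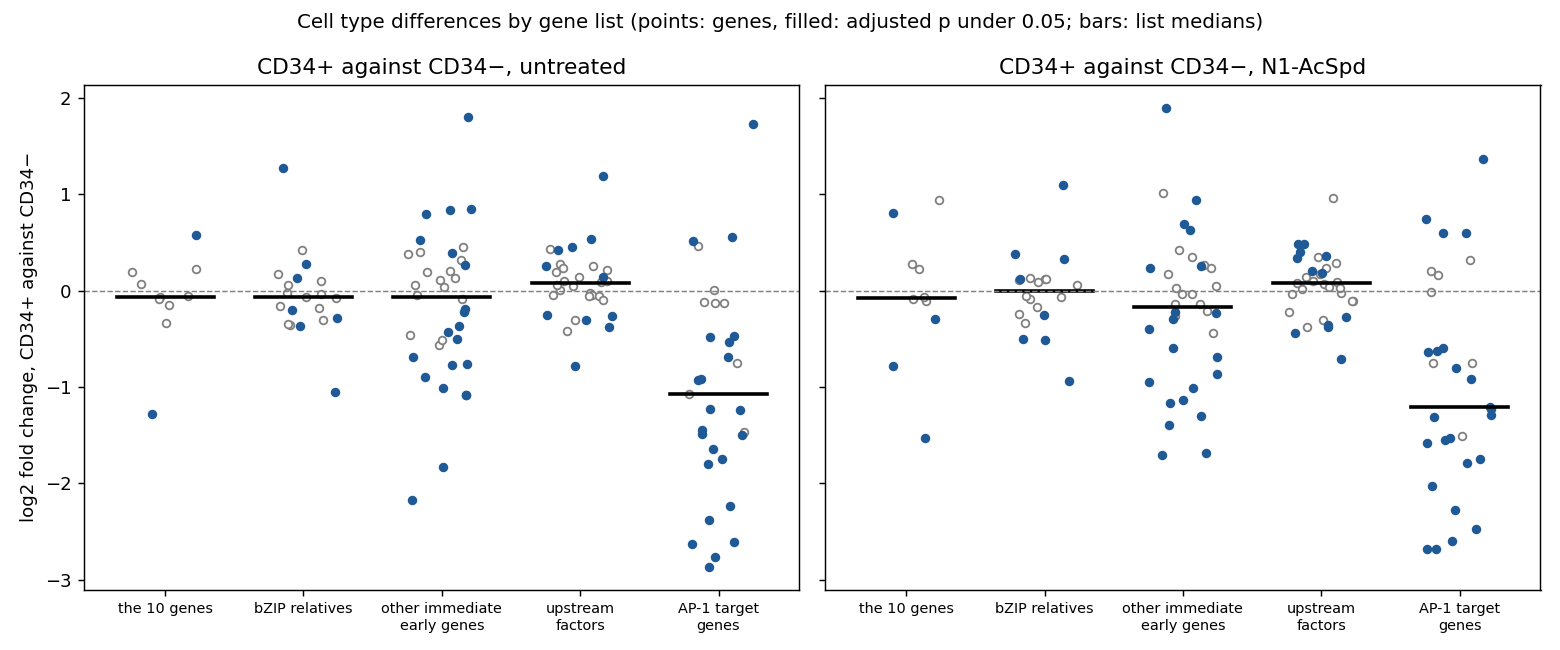
Log2 fold change for CD34+ against CD34- cells (y axis) of each tested gene in 5 lists, in untreated (left) and N1-AcSpd (right) cultures; filled points have an adjusted p under 0.05, bars are list medians and the dashed line is 0. The AP-1 targets sit lowest, with medians of -1.08 and -1.20, and the 10 genes lie around -0.06 and -0.08.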

How the data were processed

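The authors made 3′ RNA-seq libraries with sample barcodes and UMIs, pseudo-aligned 1 read of each pair with kallisto 0.45.0 to mm10 and counted unique UMIs per gene; the deposited values are whole-number counts, not normalised. The table's 156050 empty cells were read as 0, since the smallest value was 1; 2791 tested genes had such a cell, of which 851 reached 100 or more UMIs elsewhere, and none of the 10 genes did. Symbols came from a table of gene names (94 identifiers had none, 0.125% of counts). Genes with a mean of at least 5 UMIs were fitted with edgeR 4.0.16 (R 4.3.3) over all 16 libraries by group, with TMM scaling, as a quasi-likelihood test of 5 contrasts. CPM are TMM-scaled and group errors are SDs over 4 mice. Intervals are 95%, from the standard error of the fitted difference between group means, and do not give the range of single mice. DESeq2 1.42.0, other scalings and filters, the mouse as a block, the compared groups alone and each library or mouse left out were alternatives; a fit of genes with a value in every library was added after seeing the data. The model was tested on simulated data.

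The labels give replicate numbers, and a code shared by the 4 libraries of each number, but name no mouse. The paper states 4 independent donors as biological replicates, so each replicate number was read as 1 mouse, which pairs the groups. Over 24 pairs read as the same mouse the mean correlation of deviations was 0.01 (-0.07 to 0.09), against -0.0044 for other pairs. The counts of mice with the same sign rest on that reading. The genes and lists were chosen with earlier results of these data known. All 10 genes are named; of each list, the 2 largest called rises and falls in each cell type comparison with a mean of at least 50 UMIs and 1 sign in 4 mice, every list gene called for treatment, and the 3 genes most like each member (mean of at least 50 UMIs). Some genes that this rule names are not reported here.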

Additional observations from a re-analysis of the deposited data

Results flagged for a closer look

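Of 40 groups of 4 libraries, 3 held 1 value far from the other 3 by Dixon's criterion, which chance passes in about 1 in 20 groups. Junb was at 143.7 CPM in the N1-AcSpd CD34+ library of mouse 4, where the other mice were at 158.6 to 159.6 CPM. Without that library, Junb in treated CD34+ against CD34- cells was -0.26 (adjusted p = 0.00717), in place of -0.29. Ier2 was at 108.9 CPM in the N1-AcSpd CD34- library of mouse 3, where the others were at 115.2 to 115.4 CPM, and N1-AcSpd against untreated without it was 0.16 (adjusted p = 0.243). Fosb was at 0.516 CPM, or 12 UMIs, in the untreated CD34- library of mouse 1, where the others were at 0.128 to 0.173 CPM, and CD34+ against CD34- without it was 0.93 (adjusted p = 0.214), in place of 0.23.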

How the results depend on the processing

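Over settings other than leaving out libraries, 631 of the gene-level results kept their side of the threshold, 7 gained a call and 3 lost one. With libraries or mice left out the counts were 1608, 7 and 25. Of 2281 values over 82 results, 59 changed sign, none of them called in either setting. The number of the 10 genes called for N1-AcSpd against untreated in CD34- progenitors moved from 0 to 1, Junb, with the mouse as a block (1), with DESeq2 (1, adjusted p = 0.00249) and with genes that had a value in every library (1, adjusted p = 0.0473); the cause was not tested. The block also added Junb in untreated CD34+ against CD34- cells (-0.15, adjusted p = 0.0241), as did DESeq2 (-0.17, adjusted p = 0.0282), and changed no other call among the 10. Leaving out single libraries gained that Junb call without untreated CD34+ of mouse 2 (-0.18, adjusted p = 0.0497) or treated CD34- of mouse 1 (-0.15, adjusted p = 0.0322), and a treated Jund call without treated CD34+ of mouse 1 (0.30, adjusted p = 0.0297). Over all genes, calls for treatment in CD34- and CD34+ cells were 117 and 62, with the block 351 and 152, with DESeq2 558 and 431, without the low-count filter 35 and 35, and with only the compared groups 0 and 3. Depth limits Fosb, at 1 to 15 UMIs, and Atf3, at 28 to 116.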
